A study of Caenorhabditis elegans with 54 samples.

Results

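The 10 genes described here, dpy-2, dpy-3, dpy-5, dpy-7, dpy-10, dpy-13, sqt-1, sqt-3, rol-6 and lon-3, encode cuticle collagens of Caenorhabditis elegans that were named for the body shape of their mutants. They were taken by gene symbol from the 19909 genes of the deposited count table and all 10 were found. RNA of whole worms was sequenced in 54 libraries, 3 biological replicates for each of 18 conditions, and every worm, the L3 controls included, carried daf-2(e1370), a temperature-sensitive allele of the insulin receptor gene that makes larvae enter the dauer diapause. Dauers of day 1, 4, 15 and 30 (D1, D4, D15 and D30) were collected in arrest (0 h) and 6 h and 24 h after they had been moved to fresh food and a lower temperature to induce exit. Some worms were irradiated with UV on dauer day 1 and collected at 6 h and 24 h of exit from D1 and at 0 h, 6 h and 24 h on D4. L3 larvae, the stage that dauer replaces, served as the non-dauer control. The dose used for the sequenced worms is not given in the sources used here. The strain enters dauer through reduced insulin signalling, so its dauers stand for that route, and each library pools many animals.

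The nematode cuticle is an extracellular coat of collagens that the epidermis secretes anew at every molt. Circumferential furrows divide its surface into raised annuli. DPY-2, DPY-3, DPY-7 and DPY-10 are furrow collagens, and loss of any of them removes the furrows and makes the animal short and fat (dumpy). DPY-5 and DPY-13 are annulus collagens. Collagen genes are transcribed in pulses within each molting cycle, and the furrow collagens come earlier in the cycle than the annulus collagens. SQT-1 and ROL-6 shape the cuticle so that certain mutants roll around their long axis, SQT-3 is needed for a normal larval cuticle, and LON-3 limits body length, since worms without it are long. Dauer larvae carry a specialised cuticle of their own and replace it when they resume development.

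In the WBcel235 assembly, dpy-10 (WBGene00001072, chromosome II, 6710149 to 6712227, minus strand) and dpy-2 (WBGene00001064, chromosome II, 6714292 to 6715971, plus strand) are close neighbours on opposite strands. The other furrow genes are dpy-3 (WBGene00001065, chromosome X, 2144605 to 2145647, minus strand) and dpy-7 (WBGene00001069, chromosome X, 7536467 to 7537792, minus strand). The annulus genes are dpy-5 (WBGene00001067, chromosome I, 5432197 to 5433051, minus strand), which has 1 exon, and dpy-13 (WBGene00001074, chromosome IV, 4235614 to 4236710, plus strand). Chromosome II also holds rol-6 (WBGene00004397, 8733050 to 8734239, plus strand) and sqt-1 (WBGene00005016, 11336693 to 11337837, minus strand). Chromosome V holds lon-3 (WBGene00003057, 12197437 to 12198645, minus strand) and sqt-3 (WBGene00005018, 12352745 to 12354320, plus strand). All 10 are protein coding with 1 to 5 exons, and lon-3 lies in an intron of ogdh-2 on the opposite strand and shares 0 exon bases with it.

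Totals of estimated counts ranged from 670302 to 12952656 per library (median 8457220), and the 3 libraries of UV-treated D4 dauers were the shallowest (670302 to 856794). The dauer markers col-2, col-40, cut-1 and hsp-12.6 summed to 24680 to 26566 CPM (counts per 1000000, with library sizes scaled by TMM) in D1 dauers and to at most 0.466 CPM in L3 larvae, where col-2 and col-40 were at 0. In D4 dauers the same sum was 699 to 743 CPM, nearly all of it hsp-12.6 (667 to 708 CPM), while col-2 was at 0.846 to 10.50 CPM. The 7 epidermis markers were all detected in every condition. Markers of adults and embryos (the vitellogenins, col-19, cbd-1 and egg-1) summed to 569 to 2203 CPM in the D4 dauers, against 46.0 to 53.9 CPM in the D1 dauers.

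The counts of dpy-10 could not be read alone. T14B4.19, a gene model on the same strand, shares 780 of its 823 exon bases with dpy-10. In 27 libraries the pair had at least 50 counts together, and in 12 of these dpy-10 was listed at 0 while T14B4.19 had 56 to 454 counts. The split changed between replicates of 1 condition in 6 of the 7 conditions where this occurred. At 24 h of exit from D4, for example, dpy-10 had 0, 228 and 0 counts and T14B4.19 had 410, 366 and 454 counts in the 3 libraries. The sum of the pair varied less, and dpy-2 stood at 0.911 to 1.78 times that sum (median 1.32) in the 27 libraries. Values are therefore given for dpy-10 as deposited and for the sum, a choice made after the zeros had been seen.

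**Figure D1:**
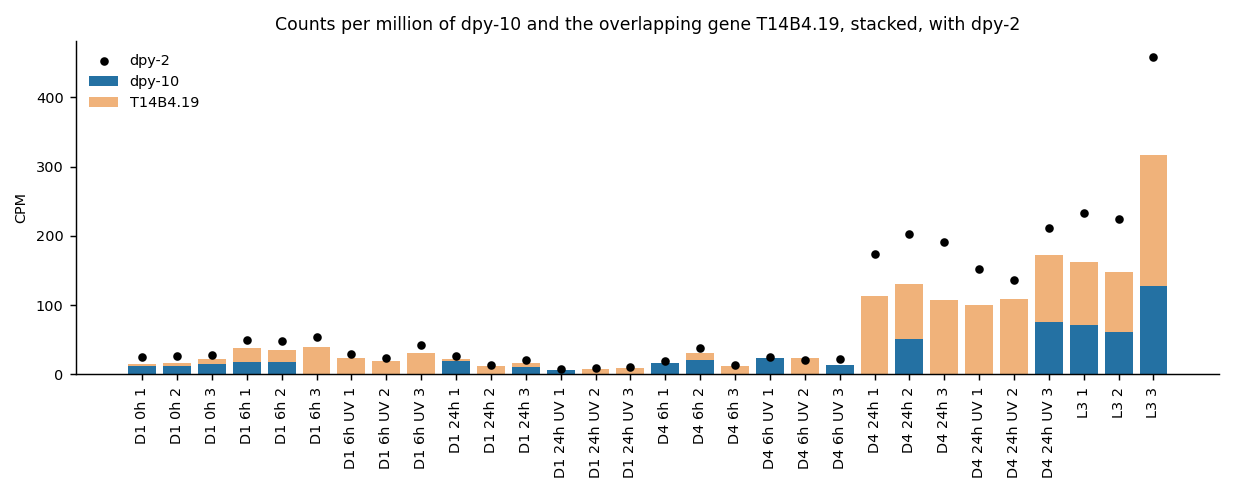
Bars stack the CPM of dpy-10 and T14B4.19 in the D1, D4 and L3 libraries (x axis) with enough counts, and points show the CPM of dpy-2. The share of dpy-10 ran from none to all of the pair within a condition, whereas the height of the stack followed dpy-2.

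All 10 genes were highest in L3 larvae, and D4 at 24 h of exit, without and with UV, took the other 2 of the 3 highest places for each of them. The annulus gene dpy-5 was at 2416, 2434 and 2208 CPM in the L3 libraries, at 1313, 1163 and 1375 CPM at 24 h of exit from D4 and at 23.9, 46.7 and 37.6 CPM in D1 dauers. These groups did not overlap. The furrow gene dpy-7 was at 199, 191 and 370 CPM in L3 larvae, 167, 203 and 169 CPM at 24 h of exit from D4 and 24.0, 27.6 and 30.56 CPM in D1 dauers. Here L3 larvae and D4 at 24 h overlapped, and the third L3 library stood apart, as it did for dpy-2 (233, 225 and 459 CPM), dpy-3 (173, 171 and 358 CPM) and the dpy-10 pair (162, 148 and 318 CPM). For dpy-5 and dpy-13 that library was the lowest of the L3 libraries. Over the genes of the whole table it also differed from L3 replicates 1 and 2 (chi-square per degree of freedom 23.4 and 29.5). Between replicates 1 and 2 that value was 1.99. All comparisons with L3 larvae include this library unless it is said to be left out. At the other end, D15 and D30 libraries at any hour held at most 1.74 CPM of dpy-10, 1.47 CPM of dpy-13 and 1.245 CPM of dpy-5. The maximum was 0.978 CPM for sqt-1, 0.914 CPM for dpy-2, 0.711 CPM for rol-6 and 0.661 CPM for lon-3. It was 0.534 CPM for dpy-3 and for dpy-7. The exception was sqt-3, at 0.944 to 5.84 CPM in all 18 of them.

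**Figure D2:**
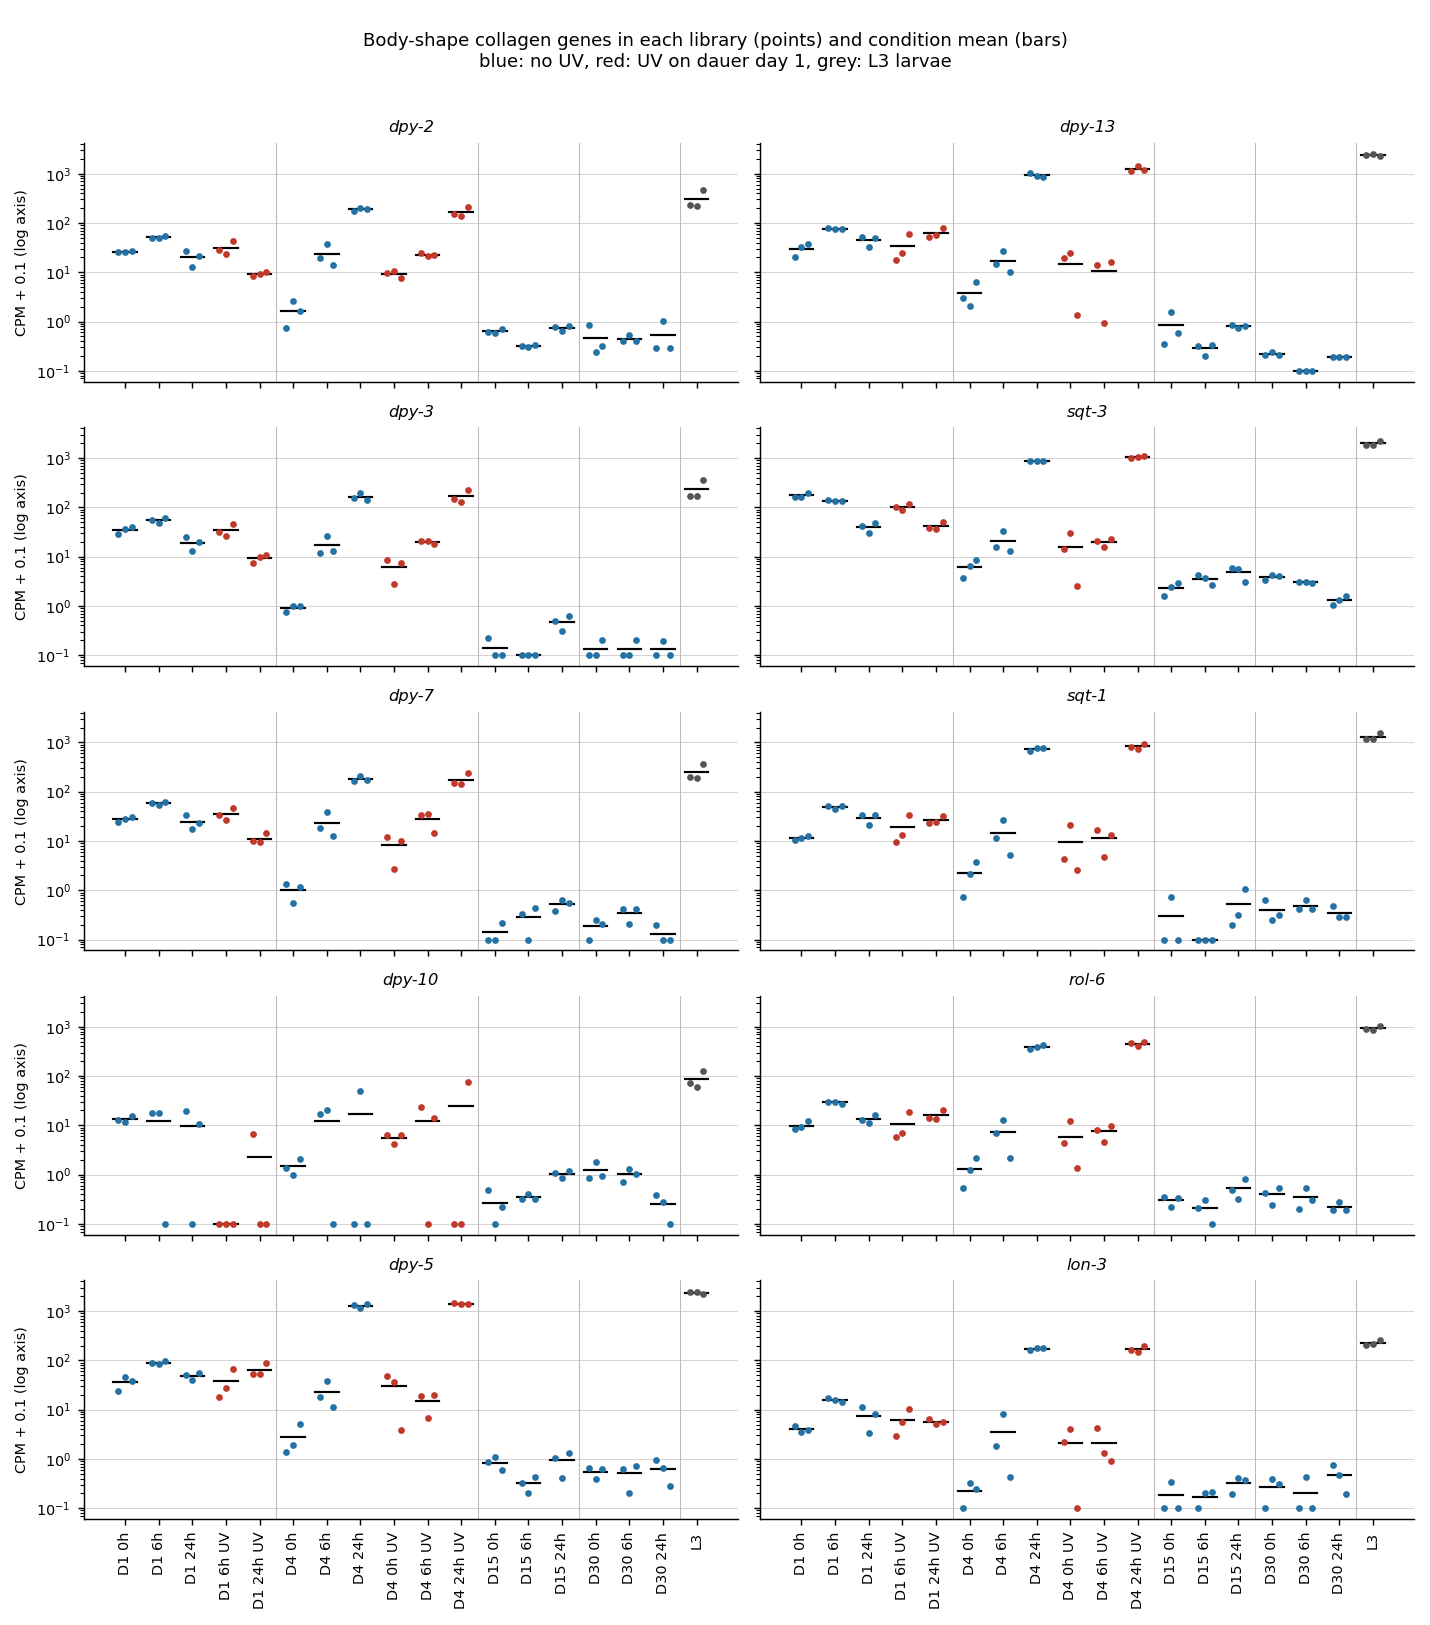
Each panel plots 1 gene, with CPM + 0.1 on a log axis against the 18 conditions, a point per library and a bar at the mean of the 3 libraries. The means of L3 larvae and of D4 at 24 h of exit, without and with UV, are the highest in every panel, the D15 and D30 means are the lowest in every panel but those of dpy-10 and lon-3, and single libraries of dpy-10 lie at 0 within several conditions.

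Per kilobase of transcript, which allows levels to be set side by side between genes, dpy-5 led in L3 larvae with a mean of 2751 CPM per kb, followed by dpy-13 (2416), sqt-3 (1399), sqt-1 (1263) and rol-6 (856 CPM per kb). The furrow genes dpy-3, dpy-2 and dpy-7 (244, 231 and 221 CPM per kb) and lon-3 (202 CPM per kb) formed a lower tier, and the dpy-10 pair was at 131 CPM per kb of dpy-10. In D1 dauers the order was another. There sqt-3 led with 122 CPM per kb, and the furrow gene dpy-3 (35.98 CPM per kb) lay between the annulus genes dpy-5 (42.2) and dpy-13 (30.3 CPM per kb).

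D1 dauers were compared with L3 larvae to show how far the genes were off when the diapause had just begun. All 10 were lower in D1 dauers (edgeR quasi-likelihood test, Benjamini-Hochberg adjusted p at most 8.88e-05), where 36.9% of the 13419 genes tested were lower. The median log2 difference was -4.73, against 0.04 over all genes tested. The collagens of the rolling mutants and the annulus collagens differed most, with log2 differences of -6.86 ± 0.16 (SE, 3 libraries against 3) for sqt-1, -6.59 ± 0.16 for rol-6, -6.35 ± 0.21 for dpy-13 and -6.07 ± 0.23 for dpy-5. The body-length collagen lon-3 differed by -5.88 ± 0.14. Smaller differences were found for the furrow genes dpy-2 (-3.58 ± 0.30), dpy-7 (-3.24 ± 0.28) and dpy-3 (-2.80 ± 0.32) and for sqt-3 (-3.55 ± 0.13). As deposited, dpy-10 differed by -2.74 ± 0.30, and the pair by -3.58 ± 0.34. D1 dauers thus held 8.56% to 14.8% of the L3 mean for dpy-2, dpy-3 and dpy-7 and 8.75% for sqt-3, but 0.877% to 1.71% for dpy-5, dpy-13, sqt-1, rol-6 and lon-3. According to the methods of the study, dauers were kept at a higher temperature than worms that were to avoid dauer formation. Stage and culture temperature therefore cannot be told apart in this comparison. Whole worms were sequenced, so fewer cells that express a gene and less RNA per cell cannot be told apart here or in the comparisons that follow.

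Of 11 other body-shape collagens, 6 passed the count filter of this comparison, and 4 were lower and 1 was higher in D1 dauers. The furrow collagen genes dpy-8 and dpy-9 differed by -3.14 ± 0.34 and -3.23 ± 0.28 on the log2 scale, sqt-2 by -6.54 ± 0.21 and dpy-4 by -6.59 ± 0.19. The exception was rol-8, at 2707 CPM in D1 dauers and 1025 CPM in L3 larvae (log2 1.37 ± 0.11, adjusted p = 1.35e-05). Enzymes that fold and crosslink collagens moved both ways. The prolyl 4-hydroxylase subunits dpy-18 (-1.58 ± 0.08), phy-2 (-1.10 ± 0.15) and pdi-2 (-1.77 ± 0.13) and the thioredoxin-like dpy-11 were lower, whereas bli-3, the dual oxidase that crosslinks cuticle collagens (1.78 ± 0.07), its partners doxa-1 and tsp-15 and the processing protease dpy-31 were higher. For reading these lists, 38.7% of all genes tested were higher. Among 11 measured epidermal and molting-cycle transcription factors 5 were lower and 2 higher, led by nhr-23, which drives molting (-2.15 ± 0.29), and lin-26, which specifies epidermis (1.14 ± 0.16). In the BMP-type pathway that sets body size, 6 of 11 genes were higher and 3 lower, lon-1 by -2.33 ± 0.08.

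Dauers of 4 ages were compared to follow the genes through the arrest. On D4 all 10 genes were lower than on D1 (edgeR, adjusted p at most 7.61e-06), where 34.1% of 13884 genes were lower. All but sqt-3 and dpy-13 had passed the count filter through the D1 libraries, where they were high, and this step was not fitted without the filter, so the count of 10 is a description. The furrow gene dpy-3 went from 28.6, 35.7 and 39.3 CPM on D1 to 0.634, 0.893 and 0.906 CPM on D4 (log2 -5.31 ± 0.25), and sqt-3 from 164, 159 and 199 CPM to 3.59, 6.48 and 8.46 CPM (-4.70 ± 0.15). For both genes every D1 library lay above every D4 library by a wide margin. The log2 changes were -4.77 ± 0.26 for dpy-7, -4.03 ± 0.25 for dpy-2 and -3.56 ± 0.30 for the dpy-10 pair, against -3.53 ± 0.29 for dpy-5, -2.84 ± 0.28 for dpy-13, -2.84 ± 0.33 for rol-6 and -2.30 ± 0.36 for sqt-1. In D4 dauers lon-3 had 2 counts in all. Its level in D1 dauers was 31.1 times that in D4 dauers, with a 95% interval of 8.35 to 261 that covers counting error only. Along with these genes, the summed epidermis markers went from 4615 to 4636 CPM in the D1 dauers to 2201 to 2268 CPM in the D4 dauers, the dauer marker sum went from 24680 to 26566 CPM to 699 to 743 CPM and the adult and embryo markers were higher. Within the dauer marker sum col-2, col-40 and cut-1 fell, whereas hsp-12.6 rose from 327 to 355 CPM to 667 to 708 CPM. The part of these markers in the result was not tested.

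From D4 to D15 sqt-3 fell further, to 1.51, 2.33 and 2.79 CPM, with no overlap (log2 -1.58 ± 0.31, edgeR adjusted p = 0.000117). In that fit 9 of the 10 genes were called lower (34.4% of genes lower), but the other 8 had at most 12 counts in a D15 library and, except dpy-13, had passed the count filter through the D1 libraries, so their calls are given as a count only. In D15 dauers dpy-7 had 0, 0 and 1 counts, sqt-1 had 0, 5 and 0 counts and dpy-2 had 4, 4 and 5 counts. From D15 to D30 2 genes rose, at a background of 28.9%, and 1 fell, at 28.8%. Higher were sqt-3, at 1.51, 2.33 and 2.79 CPM on D15 and 3.27, 4.06 and 3.94 CPM on D30 (log2 0.75 ± 0.32, adjusted p = 0.0466), and dpy-10, which had 4 counts in all on D15 and 27 on D30 (2.59 ± 0.65, adjusted p = 0.00166). T14B4.19 had 0 counts in these 6 libraries. For dpy-10 the count filter had been passed through the D1 libraries, and this step was not fitted without the filter. The call of dpy-10 is therefore a description. The gene that fell, dpy-13, had 1 count in each D30 library (adjusted p = 0.0474). For the others a change between D15 and D30 was not detectable at this depth.

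Fitted as a slope on dauer day over all 12 dauer libraries, the change from day 1 to day 30 was negative in all 10 genes (31.8% of 13884 genes were lower; adjusted p at most 0.0274), with a median log2 of -5.91 against -0.09 over all genes. In the step from D1 to D30, also not fitted without the filter, all 10 genes were lower where 41.4% of genes were. On D4 and later all members but sqt-3 had under 10 counts in most libraries, and all but sqt-3 and dpy-13 passed the count filter through the D1 libraries, so the fit was repeated without the filter, where all 10 were again lower (25.4% of genes lower). In 1 fit over all 54 libraries 8 of the 10 were called (39.9% of genes lower), without dpy-10 (adjusted p = 0.129) and lon-3 (0.110). Without either D30 replicate 1 or 3, or without D1 replicate 3, dpy-10 lost its call (adjusted p = 0.0583, 0.0545 and 0.0545). Without any 1 of the D1 libraries dpy-3, dpy-7 and lon-3 no longer passed the filter. Of the 11 collagen processing genes, 9 were lower and 0 higher on D4 than on D1 (34.1% of all genes lower), with phy-2 at -3.04 ± 0.10, mlt-7, a cuticle peroxidase, at -2.84 ± 0.09 and bli-3 at -2.37 ± 0.06. In the transcription factor list 8 of 11 were lower and 0 higher, bed-3 by -3.23 ± 0.13 and myrf-1, a regulator of developmental timing, by -2.51 ± 0.11. Of the other body-shape collagens 6 of 8 tested were lower, and rol-8 went from 2707 CPM to 2.34 CPM.

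Exit was followed next, to show when the genes come back after exit is induced by fresh food and a lower temperature. From D1 the genes rose and fell again within 24 h. At 6 h, 8 of the 10 were higher than at 0 h (edgeR, adjusted p at most 0.00083; 20.8% of 13729 genes were higher). The rolling collagen sqt-1 went from 10.3, 11.5 and 12.8 CPM at 0 h to 51.6, 43.6 and 50.6 CPM at 6 h and 32.9, 20.6 and 34.2 CPM at 24 h. Its 3 groups did not overlap. The furrow gene dpy-7 went from 24.0, 27.6 and 30.56 CPM to 59.3, 54.8 and 60.7 CPM and then 32.9, 17.02 and 23.1 CPM, so that its 0 h and 24 h libraries overlapped. The log2 rise by 6 h was 2.08 ± 0.15 for sqt-1, 2.01 ± 0.27 for lon-3, 1.56 ± 0.14 for rol-6 and 1.37 ± 0.16 for dpy-13. It was 1.37 ± 0.14 for dpy-5, 1.10 ± 0.14 for dpy-7, 0.97 ± 0.14 for dpy-2 and 0.68 ± 0.14 for dpy-3. As deposited, dpy-10 was at -0.19 ± 0.70 (adjusted p = 0.863), while the pair rose by 1.07 ± 0.15 (adjusted p = 1.51e-05). The exception was sqt-3, which fell from 164, 159 and 199 CPM to 143, 131 and 132 CPM (log2 -0.36 ± 0.09, adjusted p = 0.00506; 20.7% of genes were lower). Over the same libraries the dauer markers summed to 24680 to 26566 CPM at 0 h, 10427 to 12675 CPM at 6 h and 1282 to 2272.5 CPM at 24 h, and the epidermis markers to 4615 to 4636 CPM, 3801 to 4020.5 CPM and 2291 to 2336 CPM. The adult and embryo markers summed to 46.0 to 53.9 CPM, 71.7 to 76.6 CPM and 101 to 145.1 CPM. The part of these markers in the rise and fall of the genes was not tested.

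Between 6 h and 24 h of exit from D1, 9 of 10 genes fell (31.5% of genes were lower), by -0.66 ± 0.12 (sqt-1) to -1.68 ± 0.11 (sqt-3) on the log2 scale, and the dpy-10 pair by -1.09 ± 0.15. At 24 h, dpy-5, dpy-13, sqt-1, rol-6 and lon-3 were still above 0 h (log2 0.47 to 1.41; 34.4% of genes higher), dpy-3 and sqt-3 were below it (-0.77 and -2.04; 34.5% lower), and dpy-2 and dpy-7 were at -0.28 ± 0.16 and -0.08 ± 0.16. Of the 5 genes above 0 h, only sqt-1 had 24 h libraries that all lay above those of 0 h. A slope on exit hour does not follow such a course. It was negative for dpy-3 (log2 -1.09 ± 0.38 over the 24 h, adjusted p = 0.0283) and sqt-3 (-2.07 ± 0.16, adjusted p = 5.26e-07), 2 of 10 genes where 31.4% of genes were lower, and was not called for the other 8. The call of dpy-3 was lost without any 1 of the 24 h libraries (adjusted p = 0.0515, 0.130 and 0.0970).

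From D4 the genes rose throughout. The slope was positive for 9 of 10 (22.6% of 12607 genes were higher; adjusted p at most 0.000286), with a median log2 change over 24 h of 7.48 against -0.04 over all genes. Since D4 dauers held few counts and most genes passed the filter through the exit libraries, the fit was repeated without the filter, and again 9 of 10 were called (16.0% of genes higher). As deposited, dpy-10 changed by 2.25 ± 1.62 (adjusted p = 0.279), and the pair by 4.82 ± 0.64 (adjusted p = 0.000213). In D4 dauers dpy-5 was at 1.27, 1.79 and 4.98 CPM. It reached 18.1, 37.8 and 11.2 CPM at 6 h and 1313, 1163 and 1375 CPM at 24 h. The furrow gene dpy-2 was at 0.634, 2.46 and 1.51 CPM in D4 dauers, 19.5, 37.4 and 13.9 CPM at 6 h and 173, 203 and 191 CPM at 24 h. The 3 times did not overlap in either gene. In CPM most of the increase came after 6 h in both genes. On the log2 scale it was split differently between the first 6 h and the later hours. Over the same libraries the dauer markers summed to 699 to 743 CPM at 0 h, 212 to 295 CPM at 6 h and 29.1 to 125 CPM at 24 h, and the adult and embryo markers to 569 to 2203 CPM, 15.7 to 181 CPM and 50.2 to 410.1 CPM. The epidermis markers stayed between 2145 and 2580 CPM. The part of these markers in the result was not tested.

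In the first 6 h the furrow genes rose by log2 changes of 4.55 ± 0.50 for dpy-7, 4.29 ± 0.44 for dpy-3, 3.91 ± 0.42 for dpy-2 and 3.72 ± 0.38 for the dpy-10 pair. The rise of lon-3 was as large but poorly determined (4.36 ± 1.05, from 2 counts at 0 h). It was 2.88 ± 0.46 for dpy-5, 2.61 ± 0.53 for sqt-1, 2.40 ± 0.57 for rol-6, 2.06 ± 0.38 for dpy-13 and 1.65 ± 0.32 for sqt-3. On the log2 scale the furrow genes rose less from 6 h to 24 h than before and the other 6 genes more. The furrow genes rose by 2.97 ± 0.23 (dpy-7) to 3.28 ± 0.19 (dpy-3) and the pair by 2.59 ± 0.20, while dpy-5, dpy-13, rol-6, lon-3, sqt-1 and sqt-3 rose by 5.44 ± 0.19 (sqt-3) to 5.86 ± 0.24 (dpy-5). Both steps were called for 9 of 10 genes, where 23.5% and 20.3% of genes were higher. Most genes passed the count filter through the exit libraries, and these steps were not fitted without the filter. The counts of 9 are therefore a description. At 6 h the furrow genes had thus reached 10.4% (dpy-3) to 12.98% (dpy-7) of their 24 h mean and the pair 16.8%, and the other 6 genes 1.74% (dpy-5) to 2.33% (sqt-3). Within the 6 h libraries replicate 2 was the highest for all of these genes, so that dpy-7 reached 21.9% and dpy-5 2.94% of the 24 h mean there. The lowest 6 h library for the 3 furrow genes stood at 6.99% to 7.41% of the 24 h mean. In lon-3 the 24 h level was 1364 times that of D4 dauers, with a counting interval of 377 to 11268 because the dauers had 2 counts.

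**Figure D3:**
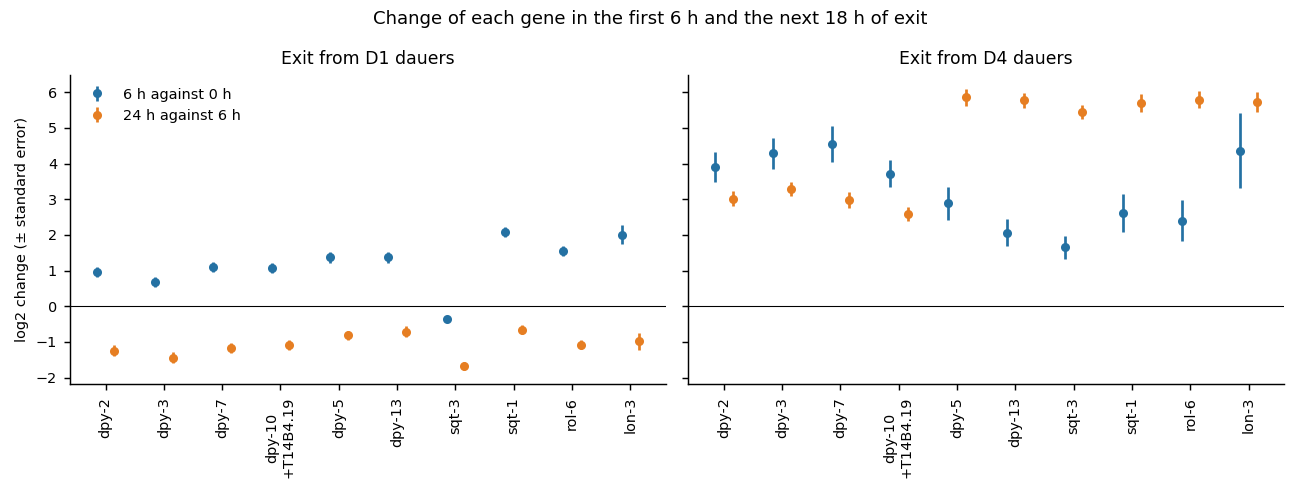
Points give the log2 change of each gene (x axis) from 0 h to 6 h and from 6 h to 24 h of exit, with its standard error, from D1 (left) and D4 (right), with dpy-10 shown as the pair. From D1 every gene but sqt-3 rose and then fell; from D4 the furrow genes, on the left of the panel, rose more in the first step than in the second, and the 6 genes to their right rose more in the second.

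The furrow and annulus genes were also set against each other within each library. The ratio of dpy-5 and dpy-13 to dpy-2, dpy-3 and dpy-7, as summed CPM, was 0.741 ± 0.164 (SD, n = 3) in D1 dauers, 1.02 ± 0.0400 at 6 h and 1.52 ± 0.279 at 24 h of exit. On D4 it was 1.96 ± 1.14 at 0 h, where it rests on 52 and 111 counts, then 0.609 ± 0.0665 at 6 h and 4.22 ± 0.698 at 24 h. L3 larvae were at 6.72 ± 2.57, with 3.76 in the library that had the highest furrow levels. With so few libraries these ratios are a description and were not tested.

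**Figure D4:**
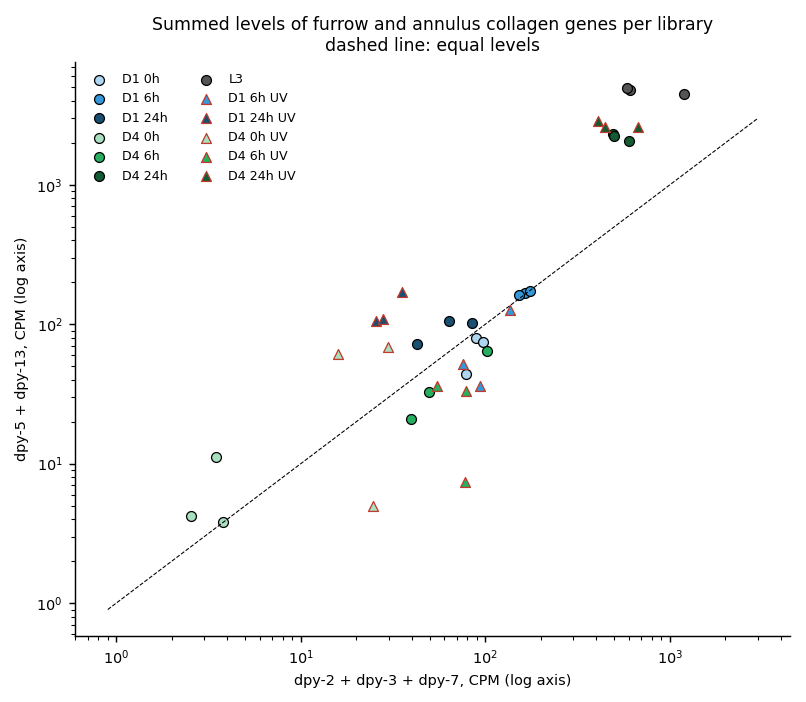
Each point is a D1, D4 or L3 library (circles without UV, triangles with), with the summed CPM of the furrow genes dpy-2, dpy-3 and dpy-7 on the x axis and of the annulus genes dpy-5 and dpy-13 on the y axis, both on log axes. The D4 libraries at 6 h lie below the line of equal levels, and those at 24 h and the L3 libraries lie above it.

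In exit from D15 and D30 the genes stayed near the floor of the counts, and only sqt-3 passed the filter. From D15 sqt-3 went from 1.51, 2.33 and 2.79 CPM to 4.11, 3.52 and 2.50 CPM at 6 h and 5.84, 5.45 and 2.93 CPM at 24 h (slope log2 1.02 ± 0.32, edgeR adjusted p = 0.026; 22.4% of 13153 genes higher). The groups overlapped, and the call was lost without replicate 1 or 2 at 0 h (adjusted p = 0.0579 and 0.0589) or replicate 1 or 2 at 24 h (0.113 and 0.0902). From D30 it fell from 3.27, 4.06 and 3.94 CPM to 2.90, 2.92 and 2.88 CPM and then 0.944, 1.19 and 1.49 CPM, with no overlap (log2 -1.57 ± 0.22, adjusted p = 6.87e-05; 22.2% of 13086 genes lower). Without the filter 3 of 10 genes were called higher from D15 (16.5% of genes), sqt-3, dpy-3 and dpy-10, and 2 lower from D30 (14.8% of genes), sqt-3 and dpy-10. The counts of dpy-10 were 3, 0 and 1 at 0 h and 10, 7 and 12 at 24 h from D15, and 7, 12 and 8 at 0 h and 3, 2 and 0 at 24 h from D30. In 1 fit over all 54 libraries sqt-3 alone was called from either day. Over the 9 libraries of each day the sum of the 10 genes reached at most 10.4 CPM from D15 and 7.11 CPM from D30, against 5009 CPM from D4.

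A test of whether the exit slopes of the 4 days differ was passed by 9 of 10 genes (edgeR, interaction with 3 degrees of freedom, adjusted p at most 2.24e-07), where 64.2% of 14975 genes passed. For dpy-10 as deposited the adjusted p was 0.174, and for the pair 4.31e-08. Within D15 or D30 alone only sqt-3 passed the count filter, and the counts of the other genes lie mainly in the D1 and D4 libraries. Without the filter 9 of 10 genes again passed, where 9705 of 19528 genes did. The D1 slope in this test does not follow the rise and fall within 24 h. The comparisons of days share libraries with those of exit, since the 0 h libraries of a day serve both, and D1 at 0 h also serves the comparison with L3 larvae.

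Other genes of cuticle synthesis moved during exit from D4 as well. Of the 6 other body-shape collagens tested 5 rose, where 22.6% of all genes did, sqt-2 by 7.75 ± 0.48, dpy-4 by 7.62 ± 0.40 and rol-8 by 6.50 ± 0.59 on the log2 scale over 24 h, while dpy-17 was not called. Of the collagen processing genes 8 of 11 rose and 1 fell (21.0% of all genes fell), with dpy-18 at 2.82 ± 0.23, phy-2 at 2.59 ± 0.29 and pdi-2 at 1.66 ± 0.11, and bli-4, a proprotein convertase, at -0.29 ± 0.08. In the transcription factor list 6 of 11 rose, led by bed-3 (3.23 ± 0.25) and grh-1 (1.00 ± 0.14), and elt-3 and lin-26 fell. In the body size pathway 5 of 11 genes fell, among them the SMAD gene sma-3 (-0.76 ± 0.14), and 1 rose, lon-1 (3.53 ± 0.24).

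At 24 h of exit from D4 some of the genes were below their level in the L3 libraries. The place of either group in the molting cycle is not given in the sources used here, and its part in the differences was not tested. Lower than in L3 larvae were 6 of 10 (edgeR, adjusted p at most 0.0149; 30.1% of 12767 genes were lower), and 0 were higher. The log2 differences were -1.31 ± 0.08 for dpy-13, -1.18 ± 0.10 for rol-6, -1.12 ± 0.09 for sqt-3, -0.82 ± 0.07 for dpy-5, -0.79 ± 0.11 for sqt-1 and -0.34 ± 0.09 for lon-3. For dpy-2, dpy-3 and dpy-7 they were -0.64 ± 0.27, -0.48 ± 0.29 and -0.44 ± 0.25 (adjusted p = 0.0708, 0.191 and 0.166). Without L3 replicate 3, which was high for these genes, they were at -0.23 ± 0.07, -0.05 ± 0.10 and -0.07 ± 0.08 (adjusted p = 0.00963, 0.712 and 0.454). The call of dpy-2 turned on single libraries, since it was also made without L3 replicate 1 (-0.83, adjusted p = 0.0377) or 2 (-0.84, adjusted p = 0.0267). As deposited dpy-10 was not called (adjusted p = 0.0956), and the pair differed by -0.78 ± 0.28 (adjusted p = 0.0429). Without D4 replicate 1 at 24 h, lon-3 lost its call (adjusted p = 0.0667). As a share of the L3 mean, dpy-13 was at 38.7% and lon-3 at 75.8% at 24 h of exit from D4.

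Irradiated worms were set against unirradiated worms of the same day and hour, to show how these genes behaved after damage on dauer day 1. At 6 h of exit from D1 all 9 genes that passed the filter were lower after UV (edgeR, adjusted p at most 0.00919; 13.4% of 13463 genes were lower). Every UV library lay below every library without UV in each of the 9. This is a description, since the share of all genes separated in this way is not given here. The annulus gene dpy-5 was at 18.3, 28.0 and 67.2 CPM after UV and 89.7, 84.9 and 96.5 CPM without. The furrow gene dpy-2 was at 28.6, 22.9 and 42.6 CPM after UV and 50.2, 48.8 and 53.8 CPM without. In both genes, as in the other 7, replicate 3 of the UV group was the highest of its group. Log2 differences were -1.50 ± 0.29 for rol-6, -1.40 ± 0.30 for sqt-1, -1.38 ± 0.29 for lon-3, -1.27 ± 0.31 for dpy-5 and -1.21 ± 0.29 for dpy-13. They were -0.69 ± 0.15 for dpy-2, -0.69 ± 0.14 for dpy-7, -0.66 ± 0.16 for dpy-3 and -0.39 ± 0.08 for sqt-3, and -0.64 ± 0.12 for the dpy-10 pair (adjusted p = 0.00266). Without replicate 3 of the UV group these became -2.17 for rol-6, -1.95 for dpy-5, -0.95 for dpy-2 and -0.50 for sqt-3. In DESeq2, dpy-5, dpy-13 and sqt-1 were not called (adjusted p = 0.0921, 0.0941 and 0.0571). Of 10 other body-shape collagens tested 4 were lower after UV (sqt-2 by -1.53 ± 0.22) and 0 higher, and of the 11 processing genes 4 were higher by at most 0.36 (14.4% of genes higher) and 0 lower. The dauer markers summed to 12637 to 16024 CPM after UV and 10427 to 12675 CPM without (3 of the 4 higher after UV, hsp-12.6 lower), and the epidermis markers to 4302 to 4483 CPM and 3801 to 4020.5 CPM. The part of these differences in the result was not tested.

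At 24 h of exit from D1 the furrow genes alone among the 10 were called lower after UV, 3 genes as deposited at a background of 6.13%. They were dpy-7, at 10.01, 9.22 and 14.1 CPM after UV and 32.9, 17.02 and 23.1 CPM without (log2 -1.16 ± 0.22, edgeR adjusted p = 0.00496), dpy-2 (-1.15 ± 0.22, adjusted p = 0.00535) and dpy-3 (-1.07 ± 0.22, adjusted p = 0.00772). The dpy-10 pair was also lower (-1.16 ± 0.22, adjusted p = 0.00446; 6.15% of genes lower in that fit). None of these genes overlapped between the groups, again without a share over all genes to set beside it. The annulus genes had higher means after UV, with dpy-5 at 53.4, 52.1 and 88.8 CPM against 50.5, 40.03 and 56.1 CPM, but neither dpy-5 (0.39 ± 0.18, adjusted p = 0.2) nor dpy-13 (0.48 ± 0.17, adjusted p = 0.0944) was called, although the dpy-13 libraries did not overlap. Without the filter and with the replicate block dpy-13 was called higher (adjusted p = 0.0481 and 0.0495). The ratio of annulus to furrow genes was 4.29 ± 0.475 (SD, n = 3) after UV and 1.52 ± 0.279 without. Without replicate 2 of the group that had no UV, which was the lowest of its group in all 10 genes, lon-3 (log2 -0.81, adjusted p = 0.0242) and dpy-10 (adjusted p = 0.0270) were called too. Of 10 other body-shape collagens tested 1 was called, the furrow collagen gene dpy-9 (-1.09 ± 0.23, adjusted p = 0.00867). The epidermis markers summed to 2722 to 2925 CPM after UV and 2291 to 2336 CPM without, and their part in the result was not tested.

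Whether the effect of UV differed between 6 h and 24 h of D1 exit was tested after both effects had been seen. It differed for rol-6 (log2 difference of the effects 1.77 ± 0.41, adjusted p = 0.00865), dpy-13 (1.70 ± 0.41, adjusted p = 0.0105) and dpy-5 (1.67 ± 0.43, adjusted p = 0.0157), all positive, where 6.58% of 13903 genes were called in that direction. In DESeq2 dpy-5 was not called (adjusted p = 0.0649). For dpy-2, dpy-3 and dpy-7 the difference was -0.46 ± 0.32, -0.40 ± 0.32 and -0.47 ± 0.30 and was not called. Without replicate 3 of the UV group at 6 h, sqt-1 and lon-3 were called as well.

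**Figure D5:**
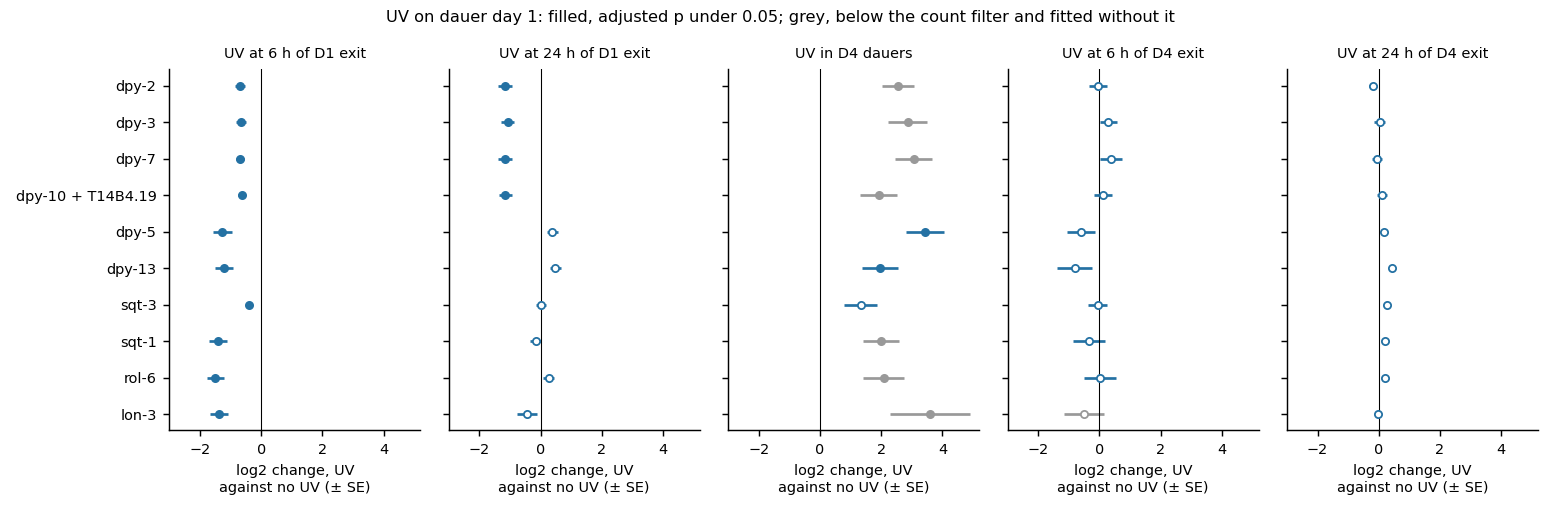
Points give the log2 difference of UV against no UV, with its standard error, for each gene (rows, with dpy-10 shown as the pair) in the 5 comparisons (panels); filled points have an adjusted p under 0.05, and grey points are genes below the count filter, taken from the fit without it. All genes lie left of 0 at 6 h of D1 exit, and dpy-2, dpy-3, dpy-7 and the dpy-10 pair alone do so with a call at 24 h; in D4 dauers all lie right of 0.

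In D4 dauers the genes were higher after UV, at low depth, since these UV libraries had 670302 to 856794 counts and those without UV 4069749 to 5978390. With the filter 3 genes could be tested, and 2 were called where 18.1% of 11420 genes were higher. The annulus gene dpy-5 had 46, 28 and 3 counts after UV (49.0, 37.2 and 3.71 CPM) and 6, 8 and 33 counts without (1.27, 1.79 and 4.98 CPM), a log2 difference of 3.44 ± 0.62 (edgeR adjusted p = 0.000887). The groups overlapped through replicate 3 of either side. For dpy-13 the difference was 1.96 ± 0.60 (adjusted p = 0.0244), a call lost without replicate 1 or 2 of either group (adjusted p = 0.0621, 0.0512, 0.139 and 0.154), and for sqt-3 it was 1.33 ± 0.54 (adjusted p = 0.0778), called without replicate 3 of the group without UV (0.0383) or with it (0.0108). In 3 of the 6 fits that left out 1 library dpy-5 no longer passed the filter. Without the filter all 10 were higher, by log2 differences of 1.25 to 3.59, where 12.3% of 18022 genes were higher. In 1 fit over all 54 libraries, which also tested all 10, 3 were called (dpy-5, dpy-7 and dpy-2; 16.3% of genes higher), and dpy-13 was not (adjusted p = 0.0886). The furrow genes dpy-2, dpy-3 and dpy-7 did not overlap between the groups, with dpy-3 at 8.52, 2.66 and 7.42 CPM after UV (8, 2 and 6 counts) and 0.634, 0.893 and 0.906 CPM without. The share of all genes without such overlap is not given here.

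Other genes separated these groups as well. The dauer cuticle collagens col-2 and col-40 were at 358 to 655 CPM and 313 to 553 CPM after UV, and at 0.846 to 10.50 CPM and 8.03 to 23.5 CPM without. The dauer marker cut-1 was also higher after UV (29.7 to 83.8 CPM against 1.34 to 1.69 CPM). The dauer marker hsp-12.6 went the other way, at 363 to 592 CPM after UV and 667 to 708 CPM without. The adult and embryo markers summed to 10.6 to 27.2 CPM after UV and 569 to 2203 CPM without. Of the processing genes 9 of 10 tested were higher after UV, where 18.1% of all genes were, with dpy-18 at 1.69 ± 0.19, and rol-8 was higher by 6.30 ± 0.29. What part the stage, the depth or other worms in the pools had in the members' difference was not tested.

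During exit from D4 no difference after UV was called in edgeR. At 6 h 0 of 9 genes tested were called (1.38% of genes either way), 0 at an unadjusted p under 0.05 and 0 in DESeq2. At 24 h 0 of 9 were called (0.134% of genes), with 5 at an unadjusted p under 0.05. The share of all genes under that unadjusted level is not given here. DESeq2 called 2 at 24 h, dpy-13 and sqt-3, where it called 30 of 4300 genes, while edgeR adjusted over 11936 genes. At 24 h dpy-13 was at 1158, 1444 and 1167 CPM after UV and 1016, 890 and 872 CPM without, which do not overlap (log2 0.45 ± 0.08, edgeR adjusted p = 0.0611), and sqt-3 was at 1001, 1071 and 1114 CPM against 862, 882 and 889 CPM (0.28 ± 0.05, adjusted p = 0.0611). Without D4 replicate 1 at 24 h dpy-13 was called (adjusted p = 0.0302). The other genes lay between -0.19 ± 0.13 (dpy-2) and 0.20 ± 0.08 (sqt-1) at 24 h. At 6 h the standard errors were 0.27 to 0.90, so that only large differences were detectable, and the fitted values ran from -0.81 (dpy-13) to 0.38 (dpy-7). The effect of UV differed between 0, 6 and 24 h on D4 for dpy-5 (adjusted p = 0.00206) and dpy-2 (adjusted p = 0.0231), where 22.8% of 12780 genes differed. Without replicate 1 of the UV-treated D4 dauers both calls were lost (adjusted p = 0.0523 and 0.101), and without replicate 2 that of dpy-2 was lost (0.0844).

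Across the 18 condition means of log2(CPM + 1) the members followed each other closely, with Pearson's r over the 45 pairs between 0.802 (dpy-10 and lon-3) and 0.998 (dpy-3 and dpy-7), and a median of 0.962. The values share their libraries and are dominated by the steps between L3 larvae, D4 at 24 h and the old dauers, so they describe the profiles without a test. With the pair in place of dpy-10 the lowest r was 0.918 (dpy-7 and lon-3), and the pair came to 0.992 to 0.995 with the other furrow genes. Outside the 10, nearest to dpy-2 and dpy-7 was dpy-9, another furrow collagen, and nearest to dpy-3 was lpr-4, followed by dpy-9 and lpr-5. The lpr genes encode lipocalins of the apical matrix. For dpy-5 and dpy-13 the nearest were the collagen genes col-90, col-73 and col-17, and for sqt-1 and rol-6 sqt-2 came first (r = 0.999 and 0.997), followed by col-17 and col-90, and by col-41 and col-17. For lon-3 these were col-41, hhat-1 and sqt-2. The neighbours of sqt-3 were idpp-1, wrt-2 and bus-8B, with r = 0.987 to 0.994. As deposited, dpy-10 had no near neighbour (cdh-1, daf-36 and clec-194, r = 0.889 to 0.901), but as the pair it was nearest to dpy-9, lpr-3 and dpy-8.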

How the data were processed

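Whole daf-2(e1370) worms were sequenced as bulk RNA, 3 libraries for each of 18 conditions. According to the methods of the study, the authors trimmed reads with fastp, quantified them with Salmon against WBPS15 mRNAs, with genomic decoys, and used tximport to obtain values per gene. The deposited values are estimated counts per gene, neither normalized nor filtered (8.49% to 64.7% of values per library had decimals), and were rounded to whole numbers here. Such counts are shared out between overlapping transcripts by estimation, so the split between dpy-10 and T14B4.19 is uncertain. Columns without a sample numbered 0.

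Comparisons were fitted with edgeR 4.0.16 (quasi-likelihood test, TMM, R 4.3.3) on the libraries of each comparison, over genes that reached 10 counts in 3 or more of them, with Benjamini-Hochberg adjustment over all genes tested and a threshold of 0.05. All adjusted p values come from edgeR unless DESeq2 1.42.0 is named. Dauer day and exit hour entered as continuous terms, as in the study, and as categories. A slope is given as the log2 change over the whole range of days or hours. Standard errors were derived from the F statistic. The protocol calls the replicates biological without naming their cultures, so p values measure the spread between these libraries. The fits were tested on simulated counts. Totals of 670302 to 12952656 counts per library set the depth, and intervals cover counting error only.

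The members and gene lists were chosen with earlier results of these data known. Named genes were the members, the 3 genes with the most similar profile and, of each list, the genes with the smallest p, up to 3 in each direction, or all where 4 were called. Genes and positions come from the Ensembl WBcel235 annotation, release 115 (19897 of 19909 genes matched). Alternatives were size factors, no filter, DESeq2, 1 fit over all libraries, a replicate block and leaving out each library. The sum of dpy-10 and T14B4.19 and the interaction of UV and hour on D1 were added after seeing the data. No 2 libraries of a condition were duplicates.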

Additional observations from a re-analysis of the deposited data

Results flagged for a closer look

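The slope of expression over exit hour differed between D1, D4, D15 and D30 in 9 of 10 genes by the interaction test in edgeR, where 64.2% of all genes were called. The adjusted p was 2.01e-08 for dpy-2, 4.06e-10 for dpy-3, 2.24e-07 for dpy-7, 7.52e-13 for dpy-5 and 9.03e-13 for dpy-13. It was 2.15e-21 for sqt-3, 1.36e-09 for sqt-1, 2.25e-12 for rol-6 and 8.15e-09 for lon-3. From D4 all 9 rose over 24 h, by log2 changes of 5.37 (dpy-2) to 8.39 (lon-3), and from D1 their slopes lay between -2.07 (sqt-3) and 0.48 (sqt-1). In sqt-3, which alone passed the count filter within every day, the slope was -2.07 ± 0.16 from D1, 7.15 ± 0.31 from D4, 1.02 ± 0.32 from D15 and -1.57 ± 0.22 from D30.

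The effect of UV differed between 0, 6 and 24 h on D4 for dpy-5 (adjusted p = 0.00206) and dpy-2 (adjusted p = 0.0231), 2 of 10 genes where 22.8% of all genes were called. Without replicate 1 of the UV-treated D4 dauers neither was called (adjusted p = 0.0523 and 0.101), nor was dpy-2 without replicate 2 (0.0844). Both were higher after UV in the dauers (dpy-2 in the fit without the filter), where the UV libraries were the shallowest of the series, and neither was called at 6 h or 24 h. Between 6 h and 24 h of exit from D1 the effect of UV differed for rol-6 (adjusted p = 0.00865), dpy-13 (adjusted p = 0.0105) and dpy-5 (adjusted p = 0.0157). For these 3 genes the log2 effect was -1.50, -1.21 and -1.27 at 6 h and 0.27, 0.48 and 0.39 at 24 h. This last test was added after both effects had been seen.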

How the results depend on the processing

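Size factors in place of TMM changed no call in 122 values of single genes. The replicate block changed 7 of 122, DESeq2 10 of 121, the fit without a filter 9 of 122 and 1 fit over all 54 libraries 11 of 122. Counts are limited by depth in D4, D15 and D30 dauers and in the UV libraries of D4 dauers. The cause of the changes below was not tested.

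Days taken as categories, the step from D15 to D30 had 3 genes called, where 8020 of 13884 genes were. They were dpy-10 (log2 2.59), sqt-3 (0.75) and dpy-13 (-2.48). Values that were positive but not called, against the negative slope over all days, were those of dpy-7 (0.72), sqt-1 (0.58), rol-6 (0.58) and lon-3 (0.82). Over D1 exit, hours as categories called 9 genes from 0 to 6 h, where 5693 of 13729 genes were called. From 6 to 24 h they called 9 (8401 of 13729 genes) and from 0 to 24 h 7 (9465 of 13729 genes). The slope called 2 (8504 of 13729 genes), and the fit over all 54 libraries called 4 (9519 of 15235 genes). Signs opposite to the slope were found from 0 to 6 h in dpy-2 (0.97), dpy-3 (0.68), dpy-7 (1.10), dpy-5 (1.37) and rol-6 (1.56), from 0 to 24 h in dpy-5 (0.55) and rol-6 (0.47), and from 6 to 24 h in dpy-13 (-0.71), sqt-1 (-0.66) and lon-3 (-0.98). These follow from a course that rises and falls.

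From D15, 3 genes were called higher without the filter (16.5% of genes). In the steps from 0 to 6 h and from 6 to 24 h 0 of the 1 gene tested was called. From D30, 2 were called lower without the filter (14.8% of genes) and 0 of the 1 tested from 0 to 6 h. Without the filter 10 genes were called higher after UV in D4 dauers, where 12.3% of genes were. At 24 h of D4 exit 2 were called without it (66 of 18004 genes) and 2 in DESeq2 (30 of 4300 genes). The interaction of UV and hour on D4 called 5 without the filter (2862 of 18916 genes) and 5 in DESeq2 (2754 of 12529 genes). Over all 54 libraries it called 1 (3649 of 15235 genes). Against L3 larvae, D4 at 24 h had 10 genes called lower over all 54 libraries, where 4697 of 15235 genes were. The mean level of dpy-10 was 209 CPM in L3 larvae and 117 CPM at 24 h of D4 exit when summed with T14B4.19, and that of sqt-3 at 24 h of D4 exit was 892 CPM with size factors.

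Replicate numbers did not pair the libraries, since correlations of same-numbered deviations were near 0 (medians of -0.0268 to 0.0372 over the comparisons). With the replicate block 5 genes were called for UV at 24 h of D1 exit, where 1088 of 13113 genes were. They were dpy-13, which was higher, and dpy-10, dpy-2, dpy-3 and dpy-7, which were lower. For UV at 24 h of D4 exit 1 was called (23 of 11936 genes), and 0 in D15 exit. Over dauer days dpy-10 lost its call (adjusted p = 0.0551). In D15 exit sqt-3 had an adjusted p of 0.0534 in edgeR.

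With each library left out in turn, the genes called numbered 10 in every fit for D1 dauers against L3 larvae, 6 to 10 for dauer days, 1 to 2 for D1 exit, 9 for D4 exit, 0 to 1 for D15 exit and 1 for D30 exit. They were 9 for the day by hour interaction, 9 for UV at 6 h of D1 exit, 3 to 5 at 24 h, 0 to 3 for UV in D4 dauers, 0 at 6 h and 0 to 1 at 24 h of D4 exit. The interactions of UV and hour gave 0 to 4 on D4 and 3 to 5 on D1, and D4 at 24 h against L3 larvae gave 5 to 8. Among values of single genes in these fits 1282 kept their call and direction, 23 gained a call and 18 lost it.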
